A study of Mus musculus with 9 samples.

Results

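The genes described here encode the secreted and membrane-bound metalloproteases that cut extracellular matrix, together with their inhibitors and relatives: the matrix metalloproteases (Mmp), the ADAMTS proteases (Adamts, metalloproteases with thrombospondin repeats), the ADAMTS-like proteins (Adamtsl) and the tissue inhibitors of metalloproteases (Timp). All genes named by one of these 4 symbol patterns were taken, which gave 49 of the 19938 genes with a named probeset: 22 Mmp, 18 Adamts, 5 Adamtsl and 4 Timp genes. Adamts2 and Mmp15 had no probeset with a single gene name and were not analysed here. They were measured on Affymetrix Mouse Gene 1.0 ST arrays in urogenital sinus mesenchyme (UGSM) cells, the connective tissue cells of the fetal structure that forms the prostate. The cells came from male CD-1 fetuses on gestation day 17, were freed from epithelium by settling, and were used at the first passage of primary culture. CD-1 is an outbred stock, so the cells were not genetically uniform. After 3 days in charcoal-stripped serum the cultures received estradiol (E2) at 10 pM or 100 pM, or ethanol as the vehicle, for 4 days, and each of the 3 groups had 3 arrays. All groups, vehicle included, received 690 pM dihydrotestosterone (DHT), so every comparison is of E2 on top of the androgen. The ethanol content of the vehicle is given as 0.05% in one label and 0.5% in another. The labels do not say whether arrays of a group came from separate cultures, so p-values measure the spread between these samples only, which may be technical.

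Matrix proteases are made as inactive precursors and are switched on outside the cell or at its surface by other proteases. TIMP proteins block the active site of MMPs, and TIMP3 also blocks several ADAMTS proteases and stays bound to the matrix. At the cell surface the membrane-type protease MMP14 together with TIMP2 recruits and activates the gelatinase MMP2, so that TIMP2 takes part both in activation and in inhibition. ADAMTS proteases cut more selected targets, such as proteoglycans and the ends of procollagens, while ADAMTS-like proteins lack the protease part and bind the microfibrils of the matrix. In the prostate, as in other branching organs, the epithelium grows into a mesenchyme that these enzymes remodel.

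Array medians of log2 signal lay between 6.17 and 6.20, and correlations between arrays were 0.9974 to 0.9982 within groups and 0.9963 to 0.9982 between groups. The 1027 olfactory receptor genes, which are not thought to be transcribed in these cells, had a median log2 signal of 3.81 and a 95th percentile of 5.59, and that percentile is used here only to describe how bright a probeset was. All 12 mesenchyme markers and all 7 smooth muscle markers were above it, as were 7 of 12 epithelial, 7 of 14 macrophage, 4 of 9 endothelial and 0 of 6 neutrophil markers. Above it were the epithelial markers Krt8, Krt14, Krt18, Krt19, Cldn4, Trp63 and Dsp and the endothelial markers Kdr, Emcn, Flt1 and Cldn5. The macrophage markers above it were Cd68, Lyz2, Csf1r, C1qa, Ptprc, Fcgr3 and Tyrobp. Those not above it included Epcam and Cdh1 (epithelium), Adgre1 and Itgam (macrophage) and Pecam1 and Cdh5 (endothelium). At 100 pM E2 the mesenchyme markers Pdgfra, Lum, Dcn and Col3a1 were called lower, and the mean deviation of the mesenchyme list from each gene's own mean was 0.02 to 0.03 with vehicle, 0.03 to 0.05 at 10 pM and -0.10 to -0.03 at 100 pM. Of the other markers, C1qb and Kdr were called lower and Emcn higher, and none was called in the smooth muscle, epithelial and neutrophil lists. Between 100 pM and 10 pM the epithelial keratin Krt18 was called higher, by a log2 difference of 0.57 (adjusted p = 0.0428), and against vehicle its difference at 100 pM was 0.43 (adjusted p = 0.112). The part of cell composition in the results below was not tested.

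Of the 49 genes, 37 had a mean log2 signal above the olfactory receptor percentile. The other 12 were Mmp1a, Mmp1b, Mmp3, Mmp7, Mmp8, Mmp13, Mmp20, Mmp21, Mmp27, Adamts19, Adamtsl3 and Timp4. Of these, 8 belong to a group of 10 Mmp genes that lie together on chromosome 9 with 3 other loci between them (Mmp13, Mmp12, Mmp1b, Mmp3, Mmp1a, Mmp10, Mmp8, Mmp27, Mmp20 and Mmp7), in which only Mmp10 and Mmp12 were above the percentile. Outside that group 11 of 12 Mmp genes were above it. A probeset near background shows less of a true change, which limits the differences given below for these 12 genes.

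Promoter sequences were read for the chromosome 9 neighbours and for the remaining genes. The 250 bases before a RefSeq start (build GRCm38.p6) were given for 34 of the 49 genes, and none was given for Adamts5, Mmp19, Mmp2, Adamts16 and 11 others. The palindrome bound by the AP-1 (Fos and Jun) factors, TGAGTCA read on both strands, was present in 7 of the 10 neighbouring genes (Mmp13, Mmp12, Mmp1b, Mmp3, Mmp1a, Mmp10 and Mmp7) and in 0 of the 24 others, against 4.46% of all 32851 promoter windows. The TATA box letters TATAAA, read on the coding strand, were in 7 of the 10 and in 3 of the 24, against 7.59% of all windows. The GC box GGGCGG, read on both strands, was in 0 of the 10 and in 18 of the 24, against 32.7% of all windows. The full estrogen response element, GGTCA followed by TGACC with any 3 bases between them, was in none of the 34 and in 0.0639% of all windows. The 34 genes had 37 windows and were counted once each, while the shares over all are per window. How alike the 10 neighbours are in sequence was not examined, so their matches may not be separate observations. None of these motifs contains another, a match is not evidence of binding, and the absence of a match says nothing about a factor bound elsewhere. The windows below show both kinds side by side. Mmp3 and Mmp13 stand for the neighbours on chromosome 9, with TGAGTCA (or TGACTCA) and TATAAA in capitals. Mmp14, Mmp11, Adamts9 and Timp2 are genes outside it whose arrays at 100 pM E2 did not overlap vehicle, with GGGCGG (or CCGCCC) in capitals. The Adamts9 window lies inside the span of its gene, which reaches to base 92944450, so it does not precede the outermost start.
Mmp3 (chr9:7445572-7445821, plus strand): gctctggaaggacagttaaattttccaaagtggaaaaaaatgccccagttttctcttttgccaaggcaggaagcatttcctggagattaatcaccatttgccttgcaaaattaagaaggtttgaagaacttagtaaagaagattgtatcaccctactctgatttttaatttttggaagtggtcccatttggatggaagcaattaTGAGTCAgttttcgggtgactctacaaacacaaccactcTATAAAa
Mmp13 (chr9:7272264-7272513, plus strand): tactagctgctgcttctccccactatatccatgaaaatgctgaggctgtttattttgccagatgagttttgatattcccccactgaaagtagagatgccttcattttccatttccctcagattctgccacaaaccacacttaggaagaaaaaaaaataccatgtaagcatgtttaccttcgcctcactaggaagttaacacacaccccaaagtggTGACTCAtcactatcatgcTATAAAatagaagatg
Mmp14 (chr14:54431348-54431597, plus strand): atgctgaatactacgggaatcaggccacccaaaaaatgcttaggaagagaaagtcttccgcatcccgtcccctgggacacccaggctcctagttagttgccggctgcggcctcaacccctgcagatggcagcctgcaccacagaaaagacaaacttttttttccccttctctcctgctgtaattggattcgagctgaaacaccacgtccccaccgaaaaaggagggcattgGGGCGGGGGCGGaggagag
Mmp11 (chr10:75932503-75932752, minus strand): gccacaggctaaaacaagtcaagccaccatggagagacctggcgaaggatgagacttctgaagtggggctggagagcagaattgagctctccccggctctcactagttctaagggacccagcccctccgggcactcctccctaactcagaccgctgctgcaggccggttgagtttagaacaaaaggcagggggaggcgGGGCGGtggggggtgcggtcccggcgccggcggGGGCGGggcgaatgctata
Adamts9 (chr6:92943535-92943784, minus strand): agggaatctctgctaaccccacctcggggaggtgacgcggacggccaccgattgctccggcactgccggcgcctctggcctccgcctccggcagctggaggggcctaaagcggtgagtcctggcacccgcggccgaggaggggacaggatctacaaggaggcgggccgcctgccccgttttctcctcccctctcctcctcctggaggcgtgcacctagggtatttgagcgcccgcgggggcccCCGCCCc
Timp2 (chr11:118355412-118355661, minus strand): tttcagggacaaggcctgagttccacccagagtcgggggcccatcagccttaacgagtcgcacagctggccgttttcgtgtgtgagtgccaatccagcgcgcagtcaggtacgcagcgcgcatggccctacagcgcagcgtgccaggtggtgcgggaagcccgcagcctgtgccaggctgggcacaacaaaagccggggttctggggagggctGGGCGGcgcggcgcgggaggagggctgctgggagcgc
In Mmp3 the AP-1 letters begin 46 bases before the start, and in Mmp13 they begin 35 bases before it. The Mmp14 window holds GGGCGG 2 times next to each other, beginning 19 and 13 bases before the start, and the Mmp11 window holds it 2 times, beginning 52 and 19 bases before it. The share of G and C was 37.6% in the Mmp3 window and 40.4% in that of Mmp13, and it was 55.2% in Mmp14, 63.2% in Mmp11, 71.2% in Adamts9 and 68.0% in Timp2.

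The main comparison asked which of these genes differed between 100 pM E2 and vehicle. Adamts5, an aggrecan- and versican-cutting protease, rose, and it was the only one of the 49 called at a Benjamini-Hochberg adjusted p under 0.05 (limma, all genes adjusted together), where 1.13% of all 19938 genes were called, 0.446% higher and 0.687% lower. Several others were lower at 100 pM in every array without passing that test, among them the collagen-cutting surface protease Mmp14, the gelatinase Mmp2, the stromal protease Mmp11, and Mmp19, Adamts9 and Adamts16. In all, 12 of 49 genes (24.5%) lay lower in all 3 arrays at 100 pM than in any vehicle array, against 5.89% of all genes, and 4 of 49 (8.16%) lay higher, against 6.61%. An unadjusted p under 0.05 was found for 14 of the 49 (28.6%), 3 higher and 11 lower, against 10.9% of all genes. When any 1 array was left out, that share was 24.5 to 28.6% of the 49, against 8.65 to 11.8% of all genes. It was 26.5% against 8.63% of all genes without the second vehicle array and the second 100 pM array. These 2 arrays were left out together after the data were seen because they stood out in marker genes. The median log2 difference of the 49 was -0.01 and that of all genes 0.00, so the lower genes were a part of the list and not a shift of the whole. In bulk RNA, fewer cells of a type and less RNA per cell cannot be told apart.

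**Figure D1:**
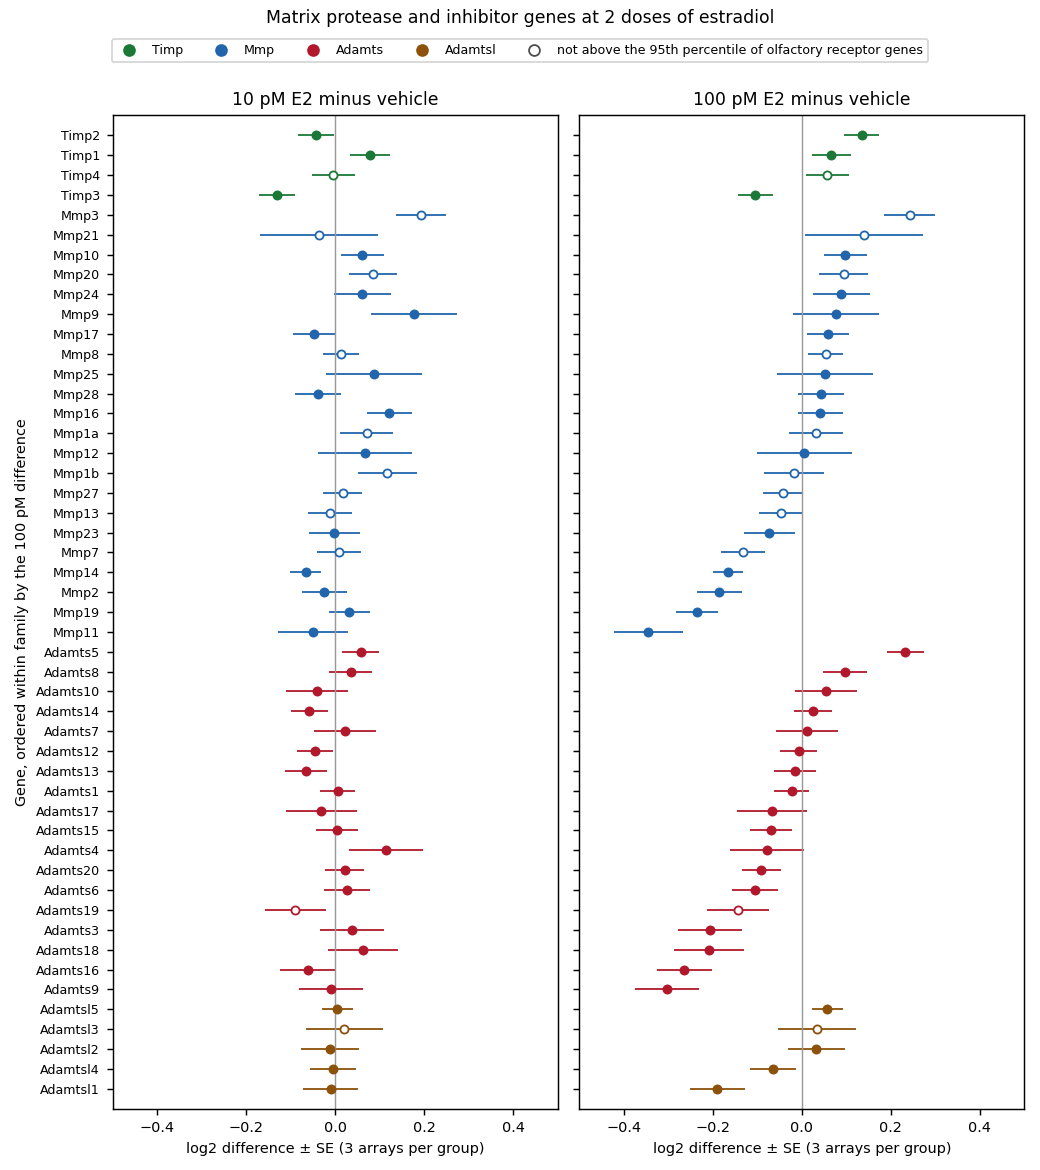
Log2 difference from vehicle (horizontal axis) for each of the 49 genes (vertical axis), at 10 pM E2 on the left and 100 pM E2 on the right; points are differences of means of 3 arrays, bars the standard error of the limma fit, colours the family, and open points genes whose mean signal was not above the 95th percentile of olfactory receptor genes (log2 5.59). At 100 pM the points run from -0.34 (Mmp11) to 0.24 (Mmp3), while at 10 pM they run from -0.13 (Timp3) to 0.19 (Mmp3).

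Among the inhibitors, Timp2 was higher at 100 pM E2 and Timp3 was lower at both doses, and neither passed the adjusted test. For Timp2 the vehicle arrays gave log2 signals of 11.13, 11.14 and 11.15, the 10 pM arrays 11.08, 11.11 and 11.09, and the 100 pM arrays 11.22, 11.35 and 11.25. The 100 pM arrays all lay above the vehicle arrays, and the 10 pM arrays all lay below them. The log2 difference from vehicle was 0.13 ± 0.04 (SE, 3 arrays per group) at 100 pM, with an adjusted p of 0.219, and the log2 difference between 100 pM and 10 pM was 0.18 ± 0.04, with an adjusted p of 0.103. Timp2 encodes the inhibitor that also serves as the adaptor for MMP2 activation. Timp3 was measured at log2 10.09, 10.08 and 10.18 with vehicle, at 10.01, 9.98 and 9.98 with 10 pM E2 and at 9.97, 10.05 and 10.02 with 100 pM E2. Both E2 groups lay wholly below vehicle and overlapped each other. The log2 difference of Timp3 was -0.13 ± 0.04 at 10 pM (adjusted p = 1) and -0.10 ± 0.04 at 100 pM (adjusted p = 0.379). Timp1 encodes the inhibitor that cells induce during growth and inflammation. With vehicle, Timp1 had log2 signals of 11.39, 11.44 and 11.47, against 11.58, 11.48 and 11.48 at 10 pM and 11.45, 11.51 and 11.54 at 100 pM E2. All 10 pM arrays were above all vehicle arrays, by a log2 difference of 0.08 ± 0.04 that was 0.04 without the first 10 pM array, whereas the 100 pM arrays overlapped vehicle. The log2 signal of Timp4 was 4.69, 4.69 and 4.69 in the vehicle arrays, 4.68, 4.69 and 4.69 at 10 pM E2 and 4.69, 4.69 and 4.86 at 100 pM E2. Timp4, the inhibitor known mainly from heart and brain, was thus level to the second decimal in 7 of 9 arrays, and its log2 signal was not above the olfactory receptor percentile.

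The collagenases and gelatinases differed in how brightly they were detected. The genes of the interstitial collagenase group, Mmp1a, Mmp1b, Mmp8 and Mmp13, were all at or below the olfactory receptor percentile. Their log2 differences at 100 pM lay between -0.05 and 0.05. The gelatinase Mmp2, which degrades denatured collagen and basement membrane and is typical of mesenchymal cells, was bright. For Mmp2 the vehicle arrays gave log2 signals of 11.29, 11.37 and 11.38, the 10 pM arrays 11.30, 11.35 and 11.31, and the 100 pM arrays 11.25, 11.07 and 11.16. Every 100 pM array was below every vehicle and every 10 pM array. Its log2 difference from vehicle was -0.19 ± 0.05 at 100 pM (adjusted p = 0.174) and -0.02 ± 0.05 at 10 pM. The other gelatinase, Mmp9, had a log2 difference of 0.18 ± 0.10 at 10 pM, where its arrays did not overlap vehicle, and of 0.08 ± 0.10 at 100 pM, where they did.

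None of the stromelysins nor the matrilysin passed the adjusted test at 100 pM E2. Mmp11 (stromelysin-3), a stromal protease found around growing and regressing epithelium and activated inside the cell, had the most negative difference of the 49 genes. Mmp11 was measured at log2 9.23, 9.25 and 9.34 with vehicle, at 9.18, 9.32 and 9.18 with 10 pM E2 and at 9.08, 8.76 and 8.96 with 100 pM E2. The 100 pM arrays lay below all others, and the second of them was the lowest. The log2 difference of Mmp11 from vehicle was -0.34 ± 0.08, a 1.27-fold lower signal, with an adjusted p of 0.0982. Left out in turn, the first 100 pM array moved this to -0.42 with an adjusted p of 0.042, and over all 9 such fits it ran from -0.42 to -0.26. Mmp3 (stromelysin-1), which cleaves many matrix proteins and activates other MMPs, had the most positive difference. With vehicle, Mmp3 had log2 signals of 4.91, 4.86 and 4.73, against 5.02, 5.01 and 5.04 at 10 pM and 5.01, 5.03 and 5.17 at 100 pM E2. Both E2 groups were wholly above vehicle and overlapped each other. Its log2 difference from vehicle was 0.19 ± 0.06 at 10 pM (adjusted p = 1) and 0.24 ± 0.06 at 100 pM (adjusted p = 0.109), at a signal below the olfactory receptor percentile. The related Mmp10 (stromelysin-2), of the same chromosome 9 group, had a log2 difference of 0.10 ± 0.05 at 100 pM with overlapping arrays. The log2 signal of Mmp7 was 5.11, 5.11 and 5.03 in the vehicle arrays, 5.05, 5.08 and 5.14 at 10 pM E2 and 5.00, 4.99 and 4.86 at 100 pM E2. Mmp7 (matrilysin), an enzyme of glandular epithelium, was lower in all 100 pM arrays than in any other array. Its log2 difference from vehicle was -0.13 ± 0.05 (adjusted p = 0.36), or -0.09 without the third 100 pM array, also at a signal below the percentile.

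Among the membrane-type proteases, Mmp14 was lower at both doses. For Mmp14 the vehicle arrays gave log2 signals of 12.42, 12.43 and 12.42, the 10 pM arrays 12.32, 12.40 and 12.36, and the 100 pM arrays 12.27, 12.24 and 12.26. The groups did not overlap in any pair, and the means were in the order vehicle, 10 pM, 100 pM from high to low, although no step passed the adjusted test. The log2 difference of Mmp14 from vehicle was -0.07 ± 0.03 at 10 pM (adjusted p = 1) and -0.17 ± 0.03 at 100 pM (adjusted p = 0.0621). MMP14 is the surface collagenase of fibroblasts and the activator of MMP2. Mmp16 was measured at log2 7.54, 7.42 and 7.58 with vehicle, at 7.62, 7.66 and 7.63 with 10 pM E2 and at 7.58, 7.49 and 7.60 with 100 pM E2. For Mmp16, a transmembrane relative of MMP14 that can also activate MMP2, the 10 pM arrays lay above all others. Its log2 difference from vehicle was 0.12 ± 0.05 at 10 pM (adjusted p = 1) and 0.04 ± 0.05 at 100 pM, and without the second vehicle array these were 0.07 and -0.01. The remaining members of this class, the transmembrane Mmp24 and the lipid-anchored Mmp17 and Mmp25, had log2 differences at 100 pM of 0.09, 0.06 and 0.05 with overlapping arrays.

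Of the other MMPs, Mmp19 was the only one called in any test. Mmp19, which cleaves basement membrane proteins and is made by many resting tissues, fell between 10 pM and 100 pM E2. With vehicle, Mmp19 had log2 signals of 7.73, 7.62 and 7.65, against 7.73, 7.74 and 7.62 at 10 pM and 7.41, 7.40 and 7.47 at 100 pM E2. The 100 pM arrays were below all 6 others, while vehicle and 10 pM overlapped. The log2 difference between 100 pM and 10 pM was -0.27 ± 0.05, a 1.20-fold lower signal, with an adjusted p of 0.0407. Against vehicle it was -0.24 ± 0.05 at 100 pM, with an adjusted p of 0.0566. The call between doses was lost in each of the 9 fits that left out 1 array, where the log2 difference was -0.31 to -0.25 and the adjusted p 0.0572 to 0.173. Median centring and testing all probesets together also ended it. Mmp12, the macrophage metalloelastase, had log2 signals of 5.92, 5.96 and 5.93 with vehicle and 5.91, 5.89 and 6.02 at 100 pM, a difference of 0.01 ± 0.11. The 14 macrophage markers were lower at 100 pM in 13 cases, with a mean deviation of 0.03 to 0.16 with vehicle, -0.03 to 0.11 at 10 pM and -0.13 to -0.10 at 100 pM, and their part in the Mmp19 difference was not tested. Mmp20, Mmp21, Mmp23, Mmp27 and Mmp28 had log2 differences at 100 pM between -0.07 and 0.14 with overlapping arrays (Mmp20, Mmp21 and Mmp27 at signals below the olfactory receptor percentile), and the highest of these, Mmp21, rested on the first 100 pM array (5.67, against 5.19 and 5.03 in the others).

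**Figure D2:**
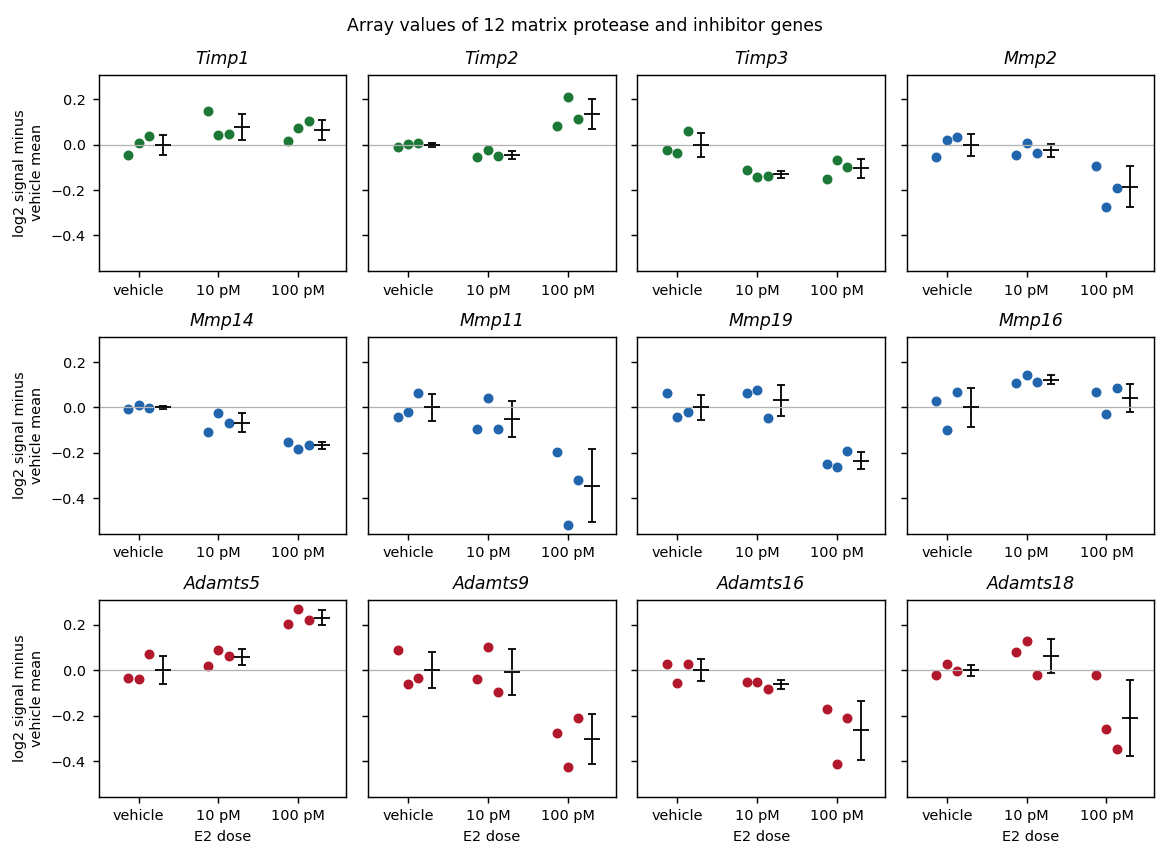
Log2 signal minus the vehicle mean (vertical axis) in each of the 9 arrays for 12 of the genes, by E2 dose (horizontal axis); points are arrays and the bars beside them the mean ± SD of 3 arrays. The 100 pM arrays of Mmp14, Mmp19 and Adamts9 lie below all vehicle arrays, and those of Adamts5 and Timp2 lie above them.

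The proteoglycan-cutting ADAMTS proteases did not move as a class. Adamts5 is the main aggrecanase of mouse cartilage and also clears versican during development. The log2 signal of Adamts5 was 8.69, 8.69 and 8.80 in the vehicle arrays, 8.75, 8.82 and 8.79 at 10 pM E2 and 8.93, 9.00 and 8.95 at 100 pM E2. All 100 pM arrays lay above all other arrays. The log2 difference from vehicle was 0.23 ± 0.04, a 1.18-fold rise, with an adjusted p of 0.0402, and between the doses it was 0.18 ± 0.04 with an adjusted p of 0.134. At 10 pM the log2 difference from vehicle was 0.06 ± 0.04. The call held without the third vehicle array (adjusted p = 0.0376) and was lost when any other array was left out, where the adjusted p reached 0.152 and the log2 difference stayed at 0.21 or above. Median centring and testing all probesets together also ended the call. Adamts9, a versican-cutting enzyme that also acts in the secretory pathway and at the base of cilia, went the other way. For Adamts9 the vehicle arrays gave log2 signals of 8.44, 8.29 and 8.32, the 10 pM arrays 8.31, 8.46 and 8.26, and the 100 pM arrays 8.07, 7.93 and 8.14. All 100 pM arrays lay below all others, with a log2 difference from vehicle of -0.30 ± 0.07 (adjusted p = 0.112). The closest relative of Adamts9 is Adamts20, known from palate, pigment cell and limb web development. Adamts20 was measured at log2 6.22, 6.22 and 6.23 with vehicle, at 6.27, 6.24 and 6.23 with 10 pM E2 and at 6.05, 6.21 and 6.14 with 100 pM E2. Its 100 pM arrays were the lowest, by a log2 difference of -0.09 ± 0.04 from vehicle (adjusted p = 0.509), which was -0.05 without the first 100 pM array. With vehicle, Adamts4 had log2 signals of 7.72, 7.51 and 7.64, against 7.82, 7.76 and 7.64 at 10 pM and 7.62, 7.38 and 7.64 at 100 pM E2. Adamts4, the second classical aggrecanase, overlapped between all groups, with a log2 difference of -0.19 ± 0.08 between the doses (adjusted p = 0.477), which was -0.11 without the second 100 pM array. Adamts1, Adamts8 and Adamts15 had log2 differences from vehicle at 100 pM of -0.02, 0.10 and -0.07 with overlapping arrays.

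The other ADAMTS genes mostly had lower means at 100 pM E2. Adamts3 trims the amino end of procollagens and, with CCBE1, activates the lymphatic growth factor VEGFC. The log2 signal of Adamts3 was 8.81, 8.79 and 8.81 in the vehicle arrays, 8.68, 8.98 and 8.86 at 10 pM E2 and 8.56, 8.54 and 8.68 at 100 pM E2. The 100 pM arrays were below the vehicle arrays, and the highest of them met the lowest 10 pM array at 8.68. The log2 difference of Adamts3 from vehicle was -0.21 ± 0.07 (adjusted p = 0.316). Its relative Adamts14, also a procollagen-trimming enzyme, had a log2 difference of 0.02 ± 0.04. The pair Adamts7 and Adamts12, which cut the cartilage protein COMP, had log2 differences of 0.01 and -0.01. Adamts6 and Adamts10 act on fibrillin microfibrils. For Adamts6 the vehicle arrays gave log2 signals of 9.60, 9.61 and 9.69, the 10 pM arrays 9.65, 9.73 and 9.61, and the 100 pM arrays 9.49, 9.48 and 9.62. The groups of Adamts6 overlapped, with a log2 difference at 100 pM of -0.11 ± 0.05 (adjusted p = 0.512), and for Adamts10 it was 0.05 ± 0.07. Adamts16 was measured at log2 8.17, 8.08 and 8.17 with vehicle, at 8.09, 8.09 and 8.06 with 10 pM E2 and at 7.97, 7.73 and 7.93 with 100 pM E2. Adamts16, a protease expressed in developing kidney and gonad, was lower in all 100 pM arrays than in any other array. Its log2 difference from vehicle was -0.26 ± 0.06 (adjusted p = 0.109), and it was -0.19 without the second 100 pM array. With vehicle, Adamts18 had log2 signals of 6.76, 6.81 and 6.78, against 6.86, 6.91 and 6.76 at 10 pM and 6.76, 6.52 and 6.44 at 100 pM E2. For its relative Adamts18 the first 100 pM array lay at the lower edge of the vehicle and 10 pM arrays while the other two were clearly lower. The log2 difference of Adamts18 was -0.21 ± 0.08 (adjusted p = 0.357), and it was called in 1 of the 9 fits that left out 1 array, the fit without the first 100 pM array (-0.30, adjusted p = 0.0449). Without the third 100 pM array it was -0.14, and over the 9 fits the adjusted p reached 0.635. Adamts13, the enzyme that cuts von Willebrand factor, and Adamts17 and Adamts19 had log2 differences at 100 pM of -0.02, -0.07 and -0.14 with overlapping arrays, that of Adamts19 at a signal below the olfactory receptor percentile.

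For 4 of the genes the array held several probesets, which allowed a second reading that did not enter the choice of 1 probeset per gene. Adamts9 had 6 probesets, and all 6 were lower at 100 pM E2 than with vehicle, with log2 differences from -0.68 to -0.28 and no overlap between the arrays of both groups in any of the 6. Averaged over its probesets, Adamts9 gave log2 signals of 7.73, 7.69 and 7.77 with vehicle, 7.68, 7.76 and 7.62 at 10 pM and 7.40, 7.12 and 7.35 at 100 pM. The log2 difference of that average was -0.44 ± 0.07 against vehicle (adjusted p = 0.0246) and -0.40 ± 0.07 against 10 pM (adjusted p = 0.0439), so Adamts9 was called when probesets were averaged and not when the brightest was used. Adamts3 had 16 probesets, all lower at 100 pM, by log2 differences from -0.33 to -0.05, and 6 of the 16 did not overlap vehicle. Its average gave -0.15 ± 0.05 (adjusted p = 0.26). Both probesets of Adamtsl1 were lower, by -0.19 and -0.17. The 5 probesets of Adamts17 gave 3 lower and 2 higher values, between -0.07 and 0.16, and none without overlap. Probesets of 1 gene read the same RNA on the same arrays and are not replicates.

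**Figure D3:**
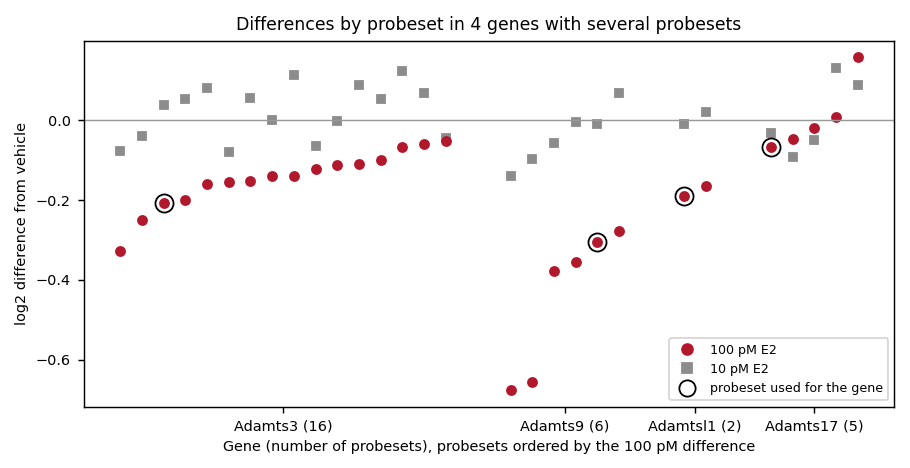
Log2 difference from vehicle (vertical axis) for every probeset of Adamts3, Adamts9, Adamtsl1 and Adamts17 (horizontal axis), at 100 pM E2 (red circles) and 10 pM E2 (grey squares); ringed circles are the probeset of highest mean signal, used elsewhere for the gene. At 100 pM all 6 Adamts9 probesets lie at -0.28 or below and all 16 Adamts3 probesets lie below 0, whereas Adamts17 lies on both sides of 0.

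The ADAMTS-like genes encode matrix proteins without a protease domain. The log2 signal of Adamtsl1 was 7.81, 7.80 and 7.98 in the vehicle arrays, 7.80, 7.95 and 7.80 at 10 pM E2 and 7.67, 7.62 and 7.73 at 100 pM E2. Adamtsl1 was lower in all 100 pM arrays than in any other array, by a log2 difference from vehicle of -0.19 ± 0.06 (adjusted p = 0.276). Adamtsl5, which binds fibrillin, was slightly higher at 100 pM in all arrays, by a log2 difference of 0.06 ± 0.03 (adjusted p = 0.62). Adamtsl2, Adamtsl3 and Adamtsl4 had log2 differences of 0.03, 0.03 and -0.06 with overlapping arrays, that of Adamtsl3 at a signal below the olfactory receptor percentile.

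At 10 pM E2 no gene of the 49 and none of the 19938 was called against vehicle (limma, percent called 0%), and 3 of the 49 had an unadjusted p under 0.05 (Mmp3, Timp3 and Mmp16), which is 6.12% against 3.54% of all genes. Arrays did not overlap for 4 genes that were higher (Mmp3, Mmp9, Mmp16 and Timp1) and 4 that were lower (Mmp14, Mmp21, Timp2 and Timp3), against 3.74% and 2.19% of all genes. Between 100 pM and 10 pM, Mmp19 was the gene called of the 49, where 0.833% of all genes were called (0.607% lower). An unadjusted p under 0.05 was found for 15 of 49 (30.6%), 2 higher and 13 lower, against 10.2% of all genes. The share of the 49 with such a p was 20.4 to 30.6% when any 1 array was left out, against 7.74 to 11.6% of all genes. Arrays of the doses did not overlap for 11 genes that were lower at 100 pM (22.4%) and 3 that were higher (6.12%), against 6.42% and 5.89% of all genes. Both comparisons at 100 pM share the same 3 arrays, so their lists of lower genes are not separate evidence. The F test over the 3 groups called none of the 49, against 0.843% of all genes, and gave an unadjusted p under 0.05 for 14 of them (28.6%), against 9.15% of all genes, with adjusted p-values of 0.0591 for Mmp19 and 0.0785 for Adamts5. The one-way analysis of variance of the study's methods gave an unadjusted p under 0.01 for 4 of the 49 (Adamts5, Mmp14, Mmp19 and Timp2), which is 8.16% against 2.66% of all genes, and for none after Benjamini-Hochberg adjustment, against 0.00502%.

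The 10 pM arrays were also set against the mean of vehicle and 100 pM (the non-monotonic contrast). This contrast is also large where only 100 pM differs from vehicle, so by itself it cannot show a response that turns back at 10 pM. None of the 49 was called (limma), against 0.00502% of all genes, and 7 of the 49 had an unadjusted p under 0.05, against 5.61% of all genes. These were Mmp19, Timp2, Adamts18, Adamts9, Adamts3, Mmp16 and Timp3. Mmp19, Adamts18, Adamts9, Adamts3 and Timp3 are also among the genes given above as lower at 100 pM, in the same arrays. By their means, 18 of the 49 (36.7%) were highest at 10 pM and 11 (22.4%) lowest there, 9 (18.4%) were ordered upward with dose and 11 (22.4%) downward. Over all genes these shares were 32.1%, 29.6%, 21.1% and 17.1%. In Mmp19 the contrast was 0.15 ± 0.04 (adjusted p = 0.602), and in Timp2 it was -0.11 ± 0.03 (adjusted p = 0.742). The log2 difference of 10 pM from vehicle alone was 0.03 in Mmp19 and -0.04 in Timp2. Of the 4 inhibitors, Timp2, Timp3 and Timp4 had their lowest mean at 10 pM and Timp1 its highest.

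Genes that act with these proteases were read from 6 lists at 100 pM E2 against vehicle, where 1.13% of all genes were called and 10.9% had an unadjusted p under 0.05. In the list of genes that activate or hold matrix proteases, 2 rose and 1 fell of 20 measured. Plau, the urokinase that starts the plasmin cascade upstream of several MMPs, rose by a log2 difference of 0.37 ± 0.06 (adjusted p = 0.0292). Cd44, the hyaluronan receptor that docks MMPs at the cell surface, rose by 0.45 ± 0.09 (adjusted p = 0.0485). A2m, the broad protease trap alpha-2-macroglobulin, fell by 0.72 ± 0.08 on the log2 scale (adjusted p = 0.00399). Of 18 astacin and ADAM proteases and enhancers, Tll1, a procollagen C-proteinase of the BMP1 family, rose by 0.65 ± 0.07 (adjusted p = 0.00399) and no other was called. Of 15 genes for proteoglycans, link proteins, matrilins and COMP, listed for their relation to ADAMTS proteases, 2 fell. On the log2 scale decorin (Dcn) fell by 0.25 ± 0.05 (adjusted p = 0.0421) and matrilin-2 (Matn2) by 0.45 ± 0.07 (adjusted p = 0.0242). Versican (Vcan), the substrate shared by Adamts5, Adamts9 and Adamts20, had a log2 difference of -0.03 ± 0.05 (adjusted p = 0.876).

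Of 21 procollagens, microfibril proteins and other ADAMTS partners, 2 rose and 2 fell at 100 pM. Ltbp1, which tethers latent TGF-beta to microfibrils, rose by 0.32 ± 0.06 (adjusted p = 0.0481). Thbs2, a matricellular protein that helps clear MMP2 from the cell surface, rose by 0.26 ± 0.04 (adjusted p = 0.0182). Fbln1, a cofactor of ADAMTS proteoglycan cleavage, fell by 0.59 ± 0.06 on the log2 scale (adjusted p = 0.00376). Col3a1 fell by 0.18 ± 0.03 (adjusted p = 0.0469). Of 19 basement membrane genes, Lama2 rose by 0.31 ± 0.05 (adjusted p = 0.0188) and no other was called. None of 10 cathepsins and cystatins was called (limma), and 4 had an unadjusted p under 0.05. The smallest p-values were those of Ctsd, with a log2 difference of 0.19 ± 0.05, and Ctsh, with 0.15. In that list 6 genes were higher and 4 lower, with log2 differences from -0.24 to 0.19. The medians of these lists lay between -0.01 and 0.03, beside 0.00 for all genes. Between 100 pM and 10 pM, where 0.833% of all genes were called, the genes called were Tll1, Ltbp1 and Lama2, which were higher, and A2m, Dcn, Ltbp2, Fbln1 and Lama4, which were lower. At 10 pM against vehicle none of the genes in these lists was called (limma), as for all genes. An unadjusted p under 0.05 was found for 1 gene in each of 2 lists, where 3.54% of all genes had such a p.

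**Figure D4:**
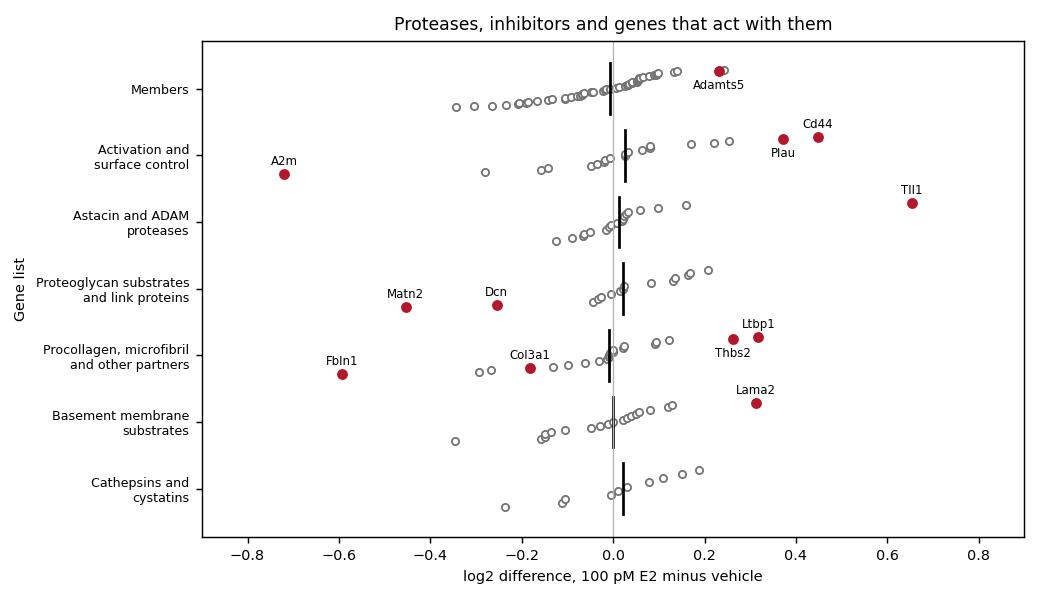
Log2 difference of 100 pM E2 minus vehicle (horizontal axis) for the 49 proteases, inhibitors and relatives (top) and for the 6 lists of genes that act with them (vertical axis); each point is a gene, red points are genes called at an adjusted p under 0.05, and black lines are list medians. The medians sit near 0 in every list, and the called genes reach from -0.72 (A2m) to 0.65 (Tll1).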

How the data were processed

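The data are 9 Affymetrix Mouse Gene 1.0 ST arrays of total RNA, 3 per group, and the sample titles gave the groups and replicate numbers. The authors converted scanned images with GCOS (named in the submitters' processing notes, version not given in the sources used here) and Gene Expression Console, and deposited 1 table of log2 expression values per probeset. The log2 scale was read from the values, and the summarization method is not given in the sources used here. Of 35556 probesets, 21789 had 1 gene symbol in the platform annotation, 1621 had several and 12146 were unnamed here. The symbols of 21698 were updated by Entrez identifier to the GRCm38.p6 gene table. Of 19938 genes, 999 had several probesets and were represented by the brightest (highest 9-array mean). Dim probesets were kept.

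In limma 3.58.1 (R 4.3.3) the functions lmFit and eBayes were run on the 9 arrays together, with a mean for each group, and p-values were adjusted by Benjamini-Hochberg over all 19938 genes. Genes were called at an adjusted p under 0.05, and errors are standard errors of that fit. The fit was tested on simulated data. Precision is limited by having 3 arrays per group. The genes and gene lists were chosen with earlier results of these data known, so no list was given a test of its own. All array values are given for genes called in any test, for the 4 Timp genes, and for the genes of smallest F test p up to 20 genes in all. From each list, called genes are named, up to 6 per comparison, or the 2 of smallest p. Plau, Cd44 and the other list genes follow this rule, and Vcan was named after its values were seen. Alternatives were other normalizations, a filter on dim genes, other probeset choices, other variance models, array weights, a replicate block, fits of the compared groups alone, another threshold and leaving out each array. Promoter windows came from RefSeq. Motifs were searched with Python 3.11.15 and figures drawn with matplotlib 3.10.9.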

Additional observations from a re-analysis of the deposited data

How the results depend on the processing

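The direction of the difference never reversed for a called gene, but the number of called genes among the 49 depended on the setting. In the main fit 1.13% of all genes were called at 100 pM against vehicle, 0.833% between the doses and 0.843% in the F test. The share of all genes called is not given here for each other setting. The counts below therefore cannot tell a change in the 49 from a change over all genes. At 100 pM E2 against vehicle, 1 gene was called, and the number was 0 with median centring, with all probesets tested, with the replicate block and with only the compared groups fitted. It was 2 with quantile normalization (Adamts5 and Mmp19) and with averaged probesets (Adamts5 and Adamts9), 4 without the dimmest 30% of genes, 4 with a trended and robust variance, 4 at an adjusted p under 0.10 (Adamts5, Mmp11, Mmp14 and Mmp19), and 0 to 2 when 1 array was left out. Between 100 pM and 10 pM, 1 gene was called, and the number was 0 with median centring, all probesets, the replicate block or only the compared groups, 2 with averaged probesets and with the trended and robust variance, and 0 to 1 when 1 array was left out. Leaving out the second vehicle array and the second 100 pM array together, chosen after seeing the data, gave 0 in both comparisons. In the F test, 0 genes were called, against 1 with quantile normalization, 2 without the dimmest genes, 1 with averaged probesets, 4 with the trended and robust variance, 2 at an adjusted p under 0.10, 4 at the unadjusted p under 0.01 of the one-way analysis of variance, and 0 to 1 when 1 array was left out. At 10 pM against vehicle and in the non-monotonic contrast the count was 0 in all settings run. Fits without 1 array, and fits of the compared groups alone, have fewer arrays; for the other settings the cause was not tested. Deviations from the group means in samples of the same replicate number had correlations of -0.112 to 0.20. Samples of different number were not compared in this way, so these values cannot show whether the numbers pair the samples. The replicate block only shows that it lowered both counts to 0.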

Other observations

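Many probesets held exactly the same deposited value in several arrays. At least 3 of the 9 arrays shared 1 value in 18 of the 49 genes (36.7%) and in 9826 of all 19938 genes (49.3%), and at least 5 arrays did so in 6 of the 49 (12.2%) and in 12.5% of all genes. In Timp4 a single value was held by 7 arrays. All 3 arrays of at least 1 group were equal in 4 of the 49 genes (8.16%) and in 9.18% of all genes, which gives those groups a spread of 0. Among the 20 genes given array by array, 3 had a value shared by 3 or more arrays. How the values came to be equal was not tested.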
